A study of Drosophila melanogaster with 12 samples.

Results

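The experiment compared the small RNAs bound to Piwi in Drosophila ovarian somatic cells that carried a version of Daedalus (Daed) without its SAM domain with those in cells that carried the wild-type protein. Genes were taken as members when they had at least 10 RPM (reads scaled to the library's total) in 3 of the 6 libraries. This held for 3735 of the 17469 genes of the table, of which 7660 had at least 1 RPM in 3 libraries and were tested. A merged transposon table of the same groups covered 130 elements.

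The cells were OSCs, a line cultured from the Drosophila melanogaster ovary, grown at 26 °C. In every library used, endogenous Daed was depleted by siRNA; after 48 h a plasmid was introduced together with further siRNA, and the cells were harvested another 48 h later. The WT group overexpressed Flag-Daed WT from the plasmid and the deltaSAM group Flag-Daed deltaSAM, each with 3 libraries. Both groups therefore carried the knockdown, a transient plasmid and a Flag tag, and no library without a rescue plasmid was among them. Piwi was immunoprecipitated with a monoclonal antibody, its RNAs were size-selected on a gel, and ribosomal RNA was depleted from the libraries.

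PIWI-interacting RNAs (piRNAs) guide Piwi to transposon transcripts in the nucleus of ovarian somatic cells. Their precursors come from transposon-rich loci, above all flam, and from a subset of messenger RNAs, and are cut at the mitochondrial outer membrane by the endonuclease Zucchini (Zuc). Daed and Gasz are outer membrane proteins that bring the helicase Armitage (Armi), and with it the precursor and Piwi, to that surface. The values below are thus levels of Piwi-bound piRNAs made from a gene or matching an element, not levels of its messenger RNA.

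The libraries held 1961721, 1812139 and 1396369 reads with WT and 1701393, 1836515 and 1810948 with deltaSAM. One read was worth 0.510 to 0.716 RPM. Over the members, the first principal component held 74.5% of the variance and set the groups apart, with WT at -21.8 to -19.8 and deltaSAM at 20.2 to 20.9. The second held 9.84% and set replicate 3 of deltaSAM (-14.9) apart from the other 5 libraries (-1.15 to 7.88). That library also held 0.111% of structural RNA reads, against 0.0604% to 0.0652% elsewhere. The labels do not say whether replicates came from separate cultures, so every p here reflects the spread among these libraries alone. Fewer cells of a type and less piRNA per cell cannot be told apart in such bulk samples. Of 10 markers of the somatic follicle lineage 8 were members, while cas was at 0 in every WT library. Of 16 germline markers 5 were members (spn-E, krimp, del, pgc and ovo), and vas gave 0.878 RPM with WT and 2.22 RPM with deltaSAM. The summed germline markers gave 579 to 645 RPM with WT and 409 to 485 RPM with deltaSAM. Most of this came from pgc (354 and 201 RPM) and spn-E (137 and 98.2 RPM). Of the other germline members krimp and ovo had higher means with deltaSAM and del a slightly lower one. The part of these markers in other changes was not tested. Muscle markers summed to 1272 to 1312 RPM with WT and 1436 to 1905 RPM with deltaSAM, nearly all from sls, and neuron markers to 373 to 398 and 583 to 636 RPM, nearly all from elav, while the other neuron member, futsch, fell from 18.9 to 7.36 RPM. Blood cell markers summed to 179 to 212 and 209 to 275 RPM, nearly all from crq (170 and 209 RPM), which was not called. The other blood cell member, srp, was not called either, while Pxn, no member, fell from 8.96 to 3.97 RPM. Hml was at 0 in all 6 libraries. These are piRNA levels of the marker genes, and their part in the results was not tested.

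The piRNAs that matched transposons were longer with deltaSAM. Weighted by reads, their mean length was 26.7 nt with WT and 29.7 nt with deltaSAM, a difference of 2.92 nt. All 87 elements with at least 100 reads in each group had longer piRNAs with deltaSAM, by a median of 2.50 nt. The difference was at least 2 nt for 70 of them and at least 3 nt for 20. Mean lengths ran from 24.9 to 29.1 nt over these elements with WT and from 26.4 to 32.9 nt with deltaSAM. The table gave 1 merged value per group, so these differences have no replicate check and no test was made.

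Among these 87 elements, Gypsy1 had the longest piRNAs in both groups, 29.1 nt with WT and 32.9 nt with deltaSAM. TIRANT, a gypsy-type retrotransposon, showed the largest difference of the 87, from 28.1 to 32.5 nt, a gain of 4.45 nt. The gain was 3.88 nt for FW2 (26.5 to 30.4 nt) and 3.92 nt for PROTOP_A (26.6 to 30.5 nt). The gain was about 3.4 nt for DM412, IDEFIX, ROVER and Gypsy2, and QUASIMODO went from 27.5 to 30.5 nt. At the other end LINEJ1 differed by 0.460 nt (26.0 to 26.4 nt), ACCORD by 1.11 nt (26.1 to 27.2 nt) and the telomeric element TART_B1 by 1.25 nt (25.8 to 27.0 nt). Over the 87 elements, which all share the same merged libraries, Spearman's rank correlation between WT and deltaSAM length was 0.68, and between WT length and the gain it was 0.04.

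**Figure D1:**
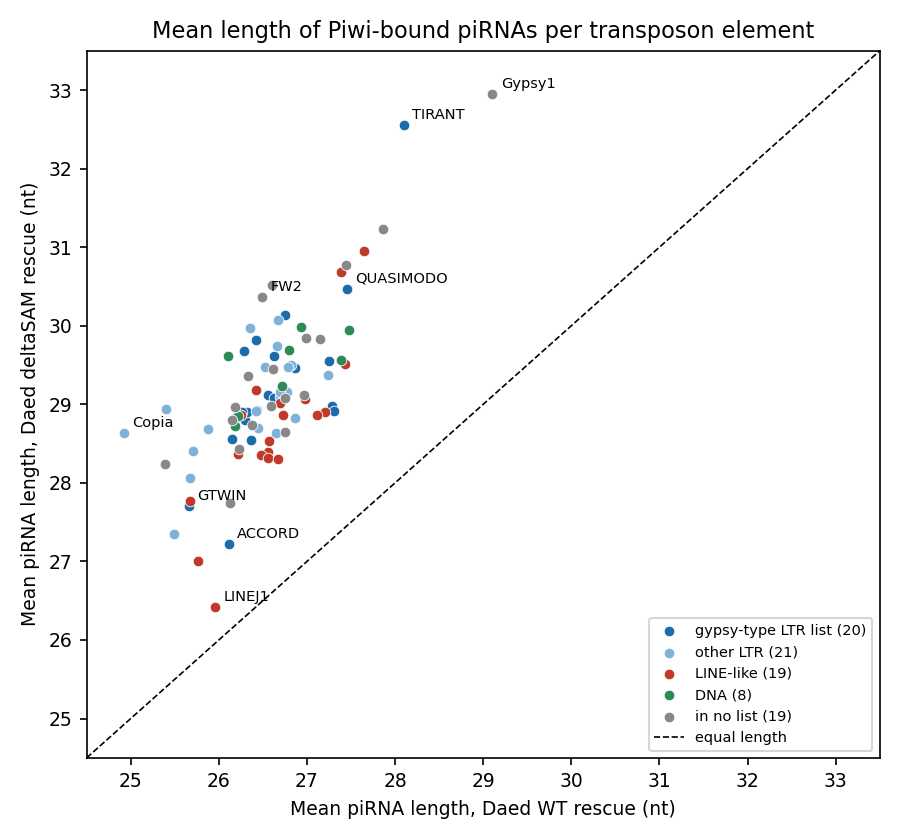
Mean length in nucleotides of Piwi-bound piRNAs per transposon element with Daed WT (horizontal axis) and Daed deltaSAM (vertical axis), for 87 elements of at least 100 reads in each group. Each point is 1 element coloured by list, the dashed line marks equal length, and all 87 points lie above it, TIRANT by 4.45 nt and LINEJ1 by 0.460 nt.

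The gain in length was found in every class of element. Classes were assigned by element name and left 19 of the 87 elements in none, some of which may belong to one of them, and these had a median gain of 2.79 nt. The gain had a median of 2.57 nt over 20 gypsy-type LTR elements active in the follicle lineage, 2.50 nt over 21 other LTR elements, 2.08 nt over 19 LINE-like elements and 2.58 nt over 8 DNA elements. LINE-like elements, which copy themselves through RNA without long terminal repeats, ran from 0.460 to 3.31 nt and gained at least 2 nt in 10 of 19 cases. DNA elements gained at least 2 nt in 8 of 8.

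By abundance transposon piRNAs took a somewhat smaller part of the library with deltaSAM, 18.1% against 20.5% with WT. The higher of the 2 groups reached 20 RPM at 97 elements, of which 74 were lower and 23 higher with deltaSAM, with a median ratio of 0.768. At 1.5-fold, 41 elements were lower (42.3%) and 5 higher (5.15%), so 47.4% lay past this size in either direction. No test was possible with 1 merged value per group, and the intervals below cover counting error only.

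The gypsy-type elements, the main targets of the flam locus in the ovarian soma, did not move as a block. QUASIMODO, the most abundant element, was at 47293 RPM with WT and 55866 RPM with deltaSAM, a ratio of 1.18 (95% interval 1.17 to 1.19). Of other abundant elements ROO (8301 and 8598 RPM) and Gypsy1 (7686 and 7895 RPM) had ratios of 1.04 and 1.03. ROVER had a ratio of 1.22 (6575 and 8019 RPM) and IDEFIX one of 1.18 (6788 and 8031 RPM). ZAM lay close to 1 with a ratio of 0.939 (14543 and 13661 RPM), as did Gypsy5 with 0.965 (11797 and 11381 RPM). In contrast GTWIN had a ratio of 0.690 (23614 and 16304 RPM), Gypsy2 one of 0.632 (21362 and 13500 RPM) and Gypsy4 one of 0.606 (13406 and 8130 RPM). Gypsy itself was lowest among the abundant ones, at 5269 RPM with WT and 1961 RPM with deltaSAM, a ratio of 0.372 (0.364 to 0.381). Over the 20 elements of this list with at least 20 RPM the median ratio was 0.814, with 6 above 1 and 14 below.

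LINE-like elements of the list were lower with deltaSAM. Their summed part of the library was 0.805% with WT and 0.374% with deltaSAM, a ratio of 0.465, and 0 of the 23 elements of at least 20 RPM had a ratio above 1, while 17 were lower past 1.5-fold. HELENA_RT was at 3397 and 1034 RPM, a ratio of 0.304 (0.295 to 0.314). DOC was at 872 and 334 RPM (0.383), and Jockey2 at 861 and 531 RPM (0.617). The smallest difference of the 23 was at G3, with 32.1 and 29.5 RPM, whose interval of 0.735 to 1.15 held 1. DMRT1C (0.332), G (0.346) and DMRT1B (0.350) were among the lowest ratios of the table, each at under 100 RPM.

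The 5 elements past 1.5-fold in the other direction were TIRANT, DM412B, DM412, S2 and QUASIMODO2. TIRANT was at 106 RPM with WT and 342 RPM with deltaSAM, a ratio of 3.24 (2.94 to 3.57), from 546 and 1828 reads. DM412B was at 293 and 679 RPM (2.32) and DM412 at 359 and 642 RPM (1.79), both LTR retrotransposon entries of related name. S2 (1.76) and QUASIMODO2 (1.56) rested on 127 and 177 reads with WT. The next ratios were those of TOM (1.30) and PROTOP (1.23). Among the elements that reached 20 RPM the lowest ratio was that of DIVER, an LTR element, at 0.221 (0.159 to 0.303), from 214 and 49 reads, and Gypsy6A had one of 0.335 (546 and 183 RPM). Elements with higher RPM had a median gain in length of 2.85 nt (23 elements of at least 100 reads) and those lower by over 1.5-fold one of 2.32 nt (31 elements). Over the 87 elements Spearman's rank correlation between the log2 ratio and the gain was 0.42, as a description.

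**Figure D2:**
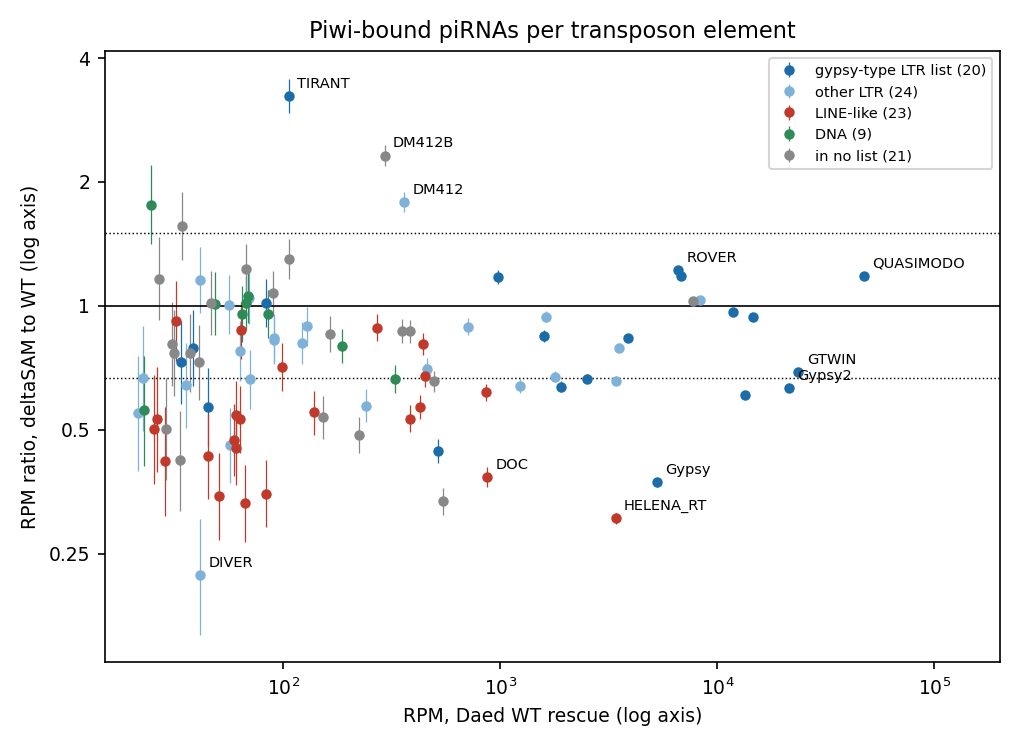
Ratio of RPM with Daed deltaSAM to RPM with Daed WT (vertical, log axis) against RPM with WT (horizontal, log axis) for the 97 transposon elements that reached 20 RPM. Points are elements coloured by list, bars are 95% intervals of counting error, dotted lines mark 1.5-fold, and the 23 LINE-like elements lie below a ratio of 1 while TIRANT lies at 3.24.

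Genes received more of each library with deltaSAM, 58.3%, 58.4% and 57.3%, against 50.8%, 50.5% and 49.2% with WT. The groups did not overlap, and the exact permutation test gave p = 0.1, two-sided, the smallest that 3 against 3 libraries allow. Whether a read may be counted both at a gene and at an element is not given in the sources used here. Of the reads at genes, 96.7% fell on members with WT and 97.6% with deltaSAM. Gene reads were spread over fewer genes, since 165, 162 and 159 genes held 50% of them with deltaSAM and 184, 183 and 184 with WT. Genes of at least 10 RPM numbered 3478, 3487 and 3496 with deltaSAM and 3723, 3675 and 3737 with WT. Without flam the part of the library at genes was 47.4 ± 0.933% with WT and 56.0 ± 0.672% with deltaSAM (SD, n = 3).

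Among the 3735 members piRNAs rose at 1101 genes (29.5%) and fell at 805 (21.6%) at an adjusted p under 0.05 (limma with Benjamini-Hochberg over all genes tested). Over all 7660 genes tested 31.8% passed, 15.9% up and 15.9% down. At a log2 fold change of at least 1, 248 members rose and 232 fell, against 4.33% and 7.52% of all genes tested. The libraries of the groups did not overlap at 2237 members, against 42.7% of all genes tested. Without replicate 3 of deltaSAM 1144 members rose and 825 fell.

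The share of rises among the members called depended on the scaling. It was 57.8% with RPM as deposited and 37.4% when values were scaled to the gene-table total. It was 71.9% after centring on the median gene, 51.4% after centring on the median member, 62.8% by edgeR (TMM) and 63.9% by DESeq2. All genes tested had a median log2 fold change of -0.09 as deposited, which the gene-table total moved to -0.26 and centring on the median gene to 0.07. Directions below are in RPM as deposited, and a list whose larger direction turned under one of these scalings is named with its counts there.

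Of the members 2965 had at least 10 RPM in all 6 libraries, and of these 979 rose and 557 fell. Another 152 passed only through the WT libraries and 59 only through the deltaSAM libraries, which had to differ by their choice. At the edge of the threshold mus304, Zw and CanA1 were just inside, with 10.03 RPM in the library ranked 3 of 6, and hry, mew and pck just outside with 9.99 RPM.

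Rises were more common among abundant members than among weak ones. In the highest of 10 bins of members by mean RPM (from 261 RPM) 196 of 374 rose and 59 fell, with a median log2 fold change of 0.28. In the lowest bin (up to 11.9 RPM) 38 of 374 rose and 108 fell, with a median of -0.27. That bin held 112 members that passed only through WT, of which 95 fell, and 41 that passed only through deltaSAM, of which 31 rose, so its falls are partly set by the choice of members. The 2965 members of at least 10 RPM in all 6 libraries were also put in 10 bins of like size. The highest of these had 161 rises and 42 falls (median 0.30) and the lowest 16 rises and 20 falls (median 0.05). Rises and falls were thus both more numerous in the highest of these bins, where reads per gene are more. The part of counting error in these numbers of calls was not tested. Over all members the medians of the highest and lowest bins at the gene-table total were 0.07 and -0.46, so both bins kept their sign. Centred on the median gene they were 0.44 and -0.11. Summed over members, the 2066 genes with a higher mean gained 131858 RPM, and the 1669 with a lower mean fell by 50393 RPM in sum. The 12 largest rises made up 24.3% of the summed gain and the 12 largest falls 30.2% of the summed loss.

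**Figure D3:**
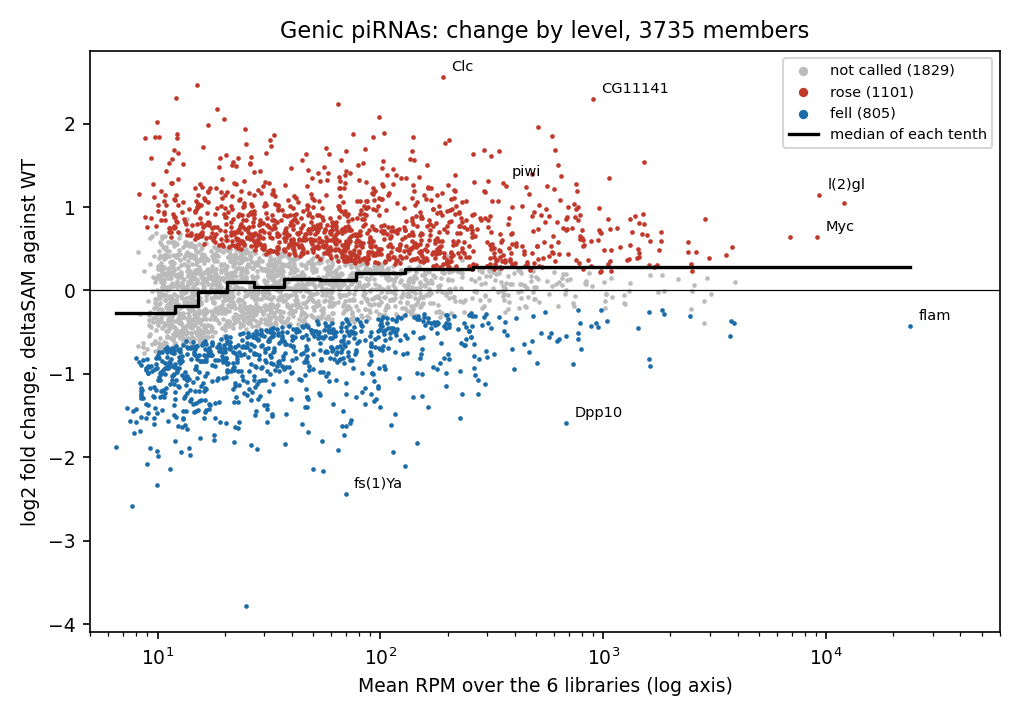
Log2 fold change of deltaSAM against WT (vertical) against mean RPM over the 6 libraries (horizontal, log axis) for 3735 members. Each point is 1 gene, red where it rose, blue where it fell and grey where it was not called, and the black line gives the median of each of 10 bins of members, from -0.27 in the lowest, which holds most of the members that passed through 1 group alone, to 0.28 in the highest.

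At the top of the gene table flam and tj moved in opposite directions. The flam locus (X:21631891-21790731 in dm6), from which most transposon-directed piRNAs of these cells derive, gave 25114, 28387 and 28211 RPM with WT and 19943, 19746 and 21118 RPM with deltaSAM. Its fall of 0.42 on the log2 scale (SE 0.08, adjusted p = 1.7e-04) alone made up 13.8% of the summed loss, and the groups did not overlap. The messenger RNA of tj, a Maf-family transcription factor gene of somatic ovarian cells, gave 7401, 8022 and 7949 RPM with WT and 16342, 18054 and 14290 RPM with deltaSAM. All 3 deltaSAM libraries lay above all WT libraries (log2 fold change 1.05 ± 0.09, where ± on this scale is the standard error), and tj made up 6.40% of the summed gain.

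The next largest gain was at l(2)gl (2L:9839-21376), a cell polarity gene and tumour suppressor, with 5845, 5872 and 5624 RPM with WT and 11550, 12064 and 14857 RPM with deltaSAM. Replicate 3 of deltaSAM was the highest library, and the log2 fold change was 1.14 ± 0.09 (adjusted p = 4.5e-11). The growth regulator gene Myc gave 7551, 7617 and 6268 RPM with WT and 10885, 10872 and 11515 RPM with deltaSAM (0.64 ± 0.09). The translational repressor gene brat gave 5489, 5529 and 5040 RPM with WT and 9383, 9130 and 6702 RPM with deltaSAM, where replicate 3 of deltaSAM lay nearest to WT (0.64 ± 0.10). The sources used here do not state whether counting used strand, so reads of overlapping genes cannot be told apart.

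Among the 12 largest gains were also genes of microtubules and of the secretory path. Klp10A, a microtubule-depolymerising kinesin, rose from 2035 ± 129 to 3683 ± 119.6 RPM (SD, n = 3; 0.86 ± 0.08), and Eb1, which binds growing microtubule ends, from 591 ± 46.7 to 1518 ± 192 RPM (1.35 ± 0.10). Sec16, the scaffold of endoplasmic reticulum exit sites, rose from 3092 ± 156 to 4422 ± 229 RPM (0.52 ± 0.08). The semaphorin receptor gene PlexA rose from 3016 to 4059 RPM (0.43), the RNA-binding protein gene msi from 1908 to 2866 RPM (0.59), the cyclin-dependent kinase gene Eip63E from 1026 to 1976 RPM (0.92) and CG11141 from 303 to 1497 RPM (2.29).

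After flam the largest loss in RPM was at DIP-alpha, a cell surface immunoglobulin gene, with 4586, 4392 and 4247 RPM with WT and 3114, 3163 and 2770 RPM with deltaSAM (-0.55 ± 0.08, adjusted p = 5.5e-06). Su(var)2-10, a SUMO ligase gene of piRNA-guided silencing, gave 2340, 2105 and 1901 RPM with WT and 1131, 1158 and 1087 RPM with deltaSAM (-0.91 ± 0.09). Dpp10 fell as well, with 1001, 1113 and 954 RPM with WT and 348, 368 and 303 RPM with deltaSAM (-1.59 ± 0.10, adjusted p = 3.1e-13). All 3 genes were named from called members whose groups did not overlap, so their lack of overlap is no added support. The siRNA-pathway nuclease gene Dcr-2 fell from 943 ± 26.6 to 512 ± 27.3 RPM (-0.88 ± 0.09), CG2765 from 2032 to 1170 RPM (-0.82), sp3 from 978 to 604 RPM (-0.70), the endocytosis gene Reps from 919 to 617 RPM (-0.58) and the splicing regulator gene hfp from 1657 to 1213 RPM (-0.46). The zinc finger gene crol fell by 0.36 on the log2 scale, a call lost when centred on the median gene. The falls of jvl (-0.30) and the formin gene dia (-0.29) were lost there too, and also without replicate 1 of WT (-0.23 and -0.18) or replicate 2 of deltaSAM (-0.24 and -0.26).

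**Figure D4:**
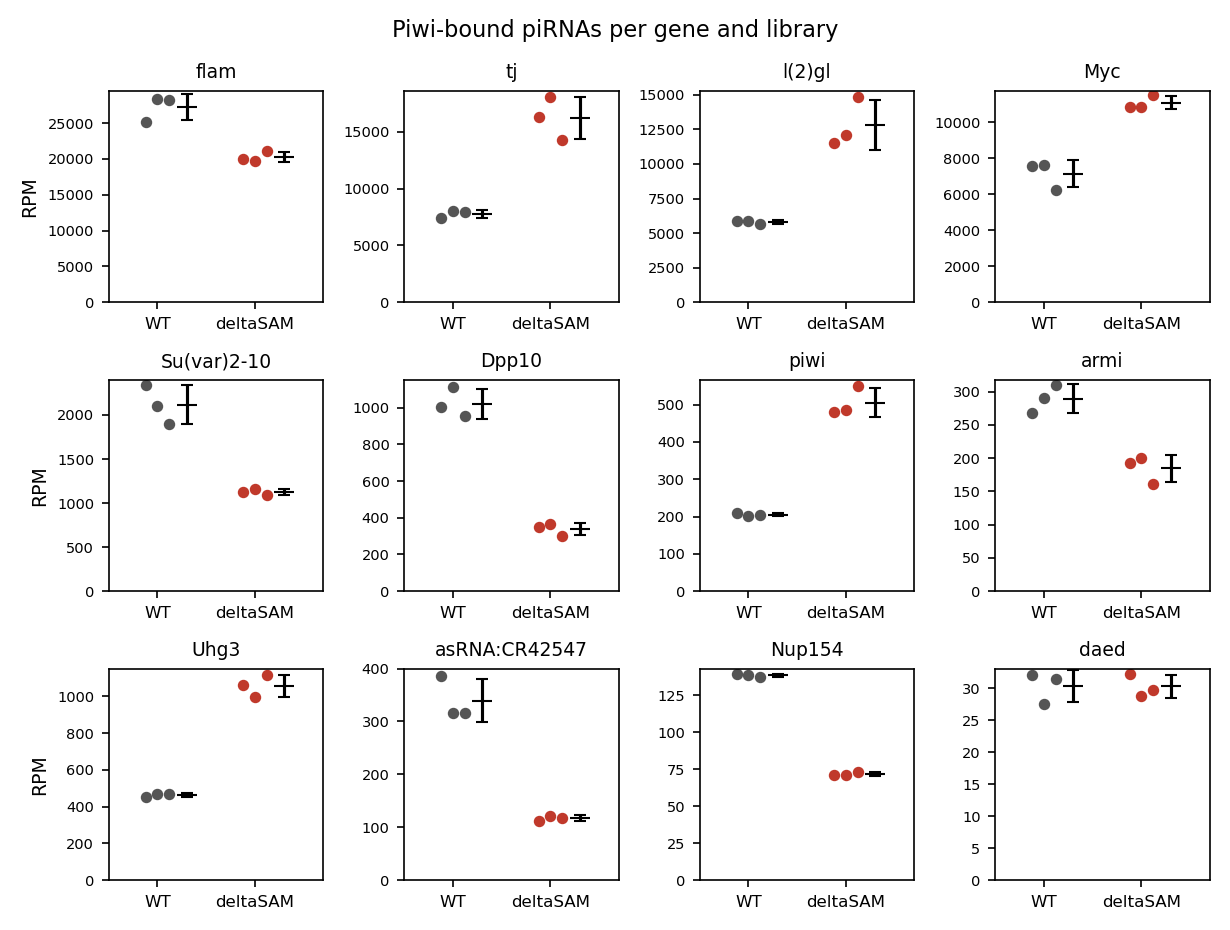
RPM of Piwi-bound piRNAs (vertical axes, each from 0) in the 3 WT libraries (grey) and the 3 deltaSAM libraries (red) for 12 genes. Points are libraries in the order of their replicate numbers, and the bar beside each group is the mean with its SD; flam, Su(var)2-10, Dpp10, armi, asRNA:CR42547 and Nup154 are lower with deltaSAM in every library, daed overlaps, and the others are higher.

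Of members that reached a group mean of 100 RPM, the largest rises on the log2 scale were at Clc, CG11141, Pif1, mmy and sqh. The clathrin light chain gene Clc gave 55.1, 48.6 and 60.2 RPM with WT and 356, 342 and 282 RPM with deltaSAM (2.56 ± 0.12), and the helicase gene Pif1 gave 17.8, 21.5 and 25.1 RPM with WT and 87.6, 86.6 and 149 RPM with deltaSAM (2.24 ± 0.18). The largest falls in this class were at fs(1)Ya, CG3635, asRNA:CR42871, CG11635 and CG5687. The nuclear envelope gene fs(1)Ya gave 113, 124 and 119 RPM with WT and 23.5, 22.3 and 17.7 RPM with deltaSAM (-2.44 ± 0.15), and CG5687 gave 234, 209 and 243 RPM with WT and 62.3, 64.3 and 64.1 RPM with deltaSAM (-1.83 ± 0.11). Lack of overlap between the groups was a condition for naming the genes of this class, so it is no added support.

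Genes of the piRNA pathway are themselves sources of piRNAs. Of 12 members that act in processing at mitochondria and Yb bodies 5 rose, 4 fell and 3 were not called, with a median log2 fold change of 0.10, against 29.5% and 21.6% and a median of 0.08 over all members. At the gene-table total 3 rose and 4 fell. The Argonaute gene piwi gave 211, 201 and 203 RPM with WT and 480.2, 485 and 549.99 RPM with deltaSAM (1.29 ± 0.10, adjusted p = 2.1e-11), with every deltaSAM library above every WT library. The gene of Nbr, the exonuclease that trims piRNA ends, gave 44.9, 41.4 and 43.7 RPM with WT and 69.9, 73.0 and 90.6 RPM with deltaSAM (0.82 ± 0.14), and the methyltransferase gene Hen1 rose from 13.7 to 26.1 RPM (0.91). The outer membrane genes Gasz (0.62) and papi (0.48) rose, calls that were each lost in 4 of the 6 analyses that left out 1 library.

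The helicase gene armi gave 267, 290.3 and 310.1 RPM with WT and 192, 199.8 and 161 RPM with deltaSAM, a fall of 0.65 on the log2 scale (SE 0.11, adjusted p = 2.3e-05). The Tudor helicase gene SoYb gave 72.4, 77.3 and 58.7 RPM with WT and 38.2, 34.8 and 42.0 RPM with deltaSAM (-0.84 ± 0.15), and the co-chaperone gene shu fell from 41.3 to 20.8 RPM (-0.97). The gene of Yb, fs(1)Yb, fell from 121 to 92.6 RPM (-0.39), a call lost without replicate 1 or 2 of WT or replicate 2 of deltaSAM. Without replicate 1 or without replicate 2 of WT the list held 3 rises and 3 falls. The daed gene gave 32.1, 27.6 and 31.5 RPM with WT and 32.3, 28.9 and 29.8 RPM with deltaSAM and did not differ beyond its spread (adjusted p = 0.996); reads of the plasmid and of the endogenous gene cannot be told apart, so this does not check the knockdown. The nuclease gene zuc was no member, with 0.510, 1.10 and 2.15 RPM with WT and 1.76, 4.90 and 3.31 RPM with deltaSAM (adjusted p = 0.106).

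Among all members 29.5% rose and 21.6% fell. Of 8 members that act in nuclear silencing under Piwi 1 rose and 3 fell, but 4 rose and 2 fell when centred on the median gene. Beside Su(var)2-10 the falls were at Mi-2, a nucleosome remodeller gene (48.8 to 24.8 RPM, -0.94), and CoRest, a corepressor gene (131 to 96.2 RPM, -0.45), the latter not called when centred. The rise was at mael (0.73), whose product acts downstream of Piwi. Of 5 germline members 1 rose, 2 fell and 2 were not called, against 2 and 2 centred. The transcriptional repressor gene pgc of primordial germ cells fell from 354 ± 24.6 to 201 ± 36.2 RPM (-0.82 ± 0.11), the helicase gene spn-E from 137 to 98.2 RPM (-0.48), and the transcription factor gene ovo rose from 21.8 to 36.7 RPM (0.73). In the exon junction and RNA export list 1 of 4 rose, Ref1 (0.70), and 1 fell, the helicase gene Hel25E (-0.54).

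Nucleoporin genes, which encode the subunits of the nuclear pore, held falls and no rise. Of 15 members 0 rose, 8 fell and 7 were not called, with a median log2 fold change of -0.69, against 21.6% falls and a median of 0.08 over all members. Of the 9 that reached 10 RPM in all 6 libraries 0 rose and 4 fell, with a median of -0.32, and Nup54 passed through WT alone. Nup358, the large filament subunit on the cytoplasmic side, gave 119, 90.5 and 91.0 RPM with WT and 35.3, 32.1 and 40.3 RPM with deltaSAM (-1.45 ± 0.15, adjusted p = 6.7e-09). Elys, which starts pore assembly on chromatin, gave 42.3, 34.8 and 27.2 RPM with WT and 7.05, 9.80 and 10.5 RPM with deltaSAM (-1.82 ± 0.22). Nup154, of the inner ring, gave 139.7, 139 and 137 RPM with WT and 71.1, 70.8 and 73.4 RPM with deltaSAM (-0.94 ± 0.12), and Nup98-96 gave 95.3, 85.0 and 87.4 RPM with WT and 55.2, 51.2 and 53.0 RPM with deltaSAM (-0.74 ± 0.13). In these 4 genes no library of one group reached the other, but they were named for the lowest p of the list, so this is no added support. Groups did not overlap at 8 of the 15 members of the list, against 2237 of all 3735 members. Nup214, Nup54, Ndc1 and Nup188 also fell. The calls of Nup54, Ndc1 and Nup188 were lost without replicate 1 of WT or replicate 2 of deltaSAM, among others. The membrane nucleoporin gene Gp210 stayed within its spread (209 to 196 RPM, adjusted p = 0.548). There were 11 falls at the gene-table total, 5 after centring on the median gene, 5 with DESeq2 and 5 without replicate 1 of WT, with 0 rises in each.

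Of 13 proteasome members 0 rose, 4 fell and 9 were not called, against 29.5% rises and 21.6% falls over all members. But 3 of the 4 falls (Prosalpha7, Prosalpha3 and Prosbeta6) were at genes that had become members through the WT libraries alone. Of the 4 that reached 10 RPM in all 6 libraries 0 rose and 0 fell. The core subunit gene Prosalpha7 fell from 22.4 to 8.46 RPM (-1.33). Its choice through WT alone favours a fall, so its call under each leave-out of 1 library is no added support. Prosbeta3 (23.4 to 9.75 RPM, -1.18), which did not reach 10 RPM in all 6 libraries, also fell under each leave-out. Without replicate 1 of WT 2 falls were left in the list. Of 9 spliceosome members 0 rose and 3 fell, namely Prp8 (58.8 to 32.2 RPM, -0.86), Sf3b3 (19.99 to 8.93 RPM, -1.10) and SmB (16.5 to 8.82 RPM, -0.87), the last not called without replicate 2 of deltaSAM. Of the 4 of these members that reached 10 RPM in all 6 libraries 1 fell. Sf3b3 overlaps a cluster of snoRNA genes.

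Of 12 Notch pathway members 6 rose, 1 fell and 5 were not called, with a median of 0.42, against 29.5% rises and 21.6% falls over all members. Of the 10 that reached 10 RPM in all 6 libraries 5 rose and 1 fell. The metalloprotease gene kuz, which makes the first cut of the activated receptor, gave 142, 146 and 155 RPM with WT and 263, 258 and 261 RPM with deltaSAM (0.82 ± 0.10, adjusted p = 3.0e-07). The gamma-secretase subunit gene Nct gave 184, 191 and 189.8 RPM with WT and 312, 298 and 347 RPM with deltaSAM (0.76 ± 0.10), and aph-1, of the same complex, gave 6.63, 7.17 and 4.30 RPM with WT and 32.3, 33.8 and 16.6 RPM with deltaSAM (1.98 ± 0.27). The groups did not overlap in these 3 genes, which were named for the lowest p of the list, so this is no added support. Such a lack of overlap was found at 8 of the 12 members, against 2237 of all 3735 members. The gene aph-1 was a member through its deltaSAM libraries alone. The corepressor gene H rose from 106 to 197 RPM (0.87), the receptor gene N from 58.0 to 83.0 RPM (0.52) and its coactivator gene mam from 144 to 196 RPM (0.43). The other gamma-secretase genes Psn (11.6 to 8.44 RPM, adjusted p = 0.246) and pen-2 (32.0 to 37.9 RPM, adjusted p = 0.352) were not called. The fall was at the glycosyltransferase gene fng (-0.56), lost in 4 of the 6 analyses that left out 1 library. At the gene-table total 4 rose and 1 fell.

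Of 17 EGFR and Ras pathway members 7 rose, 1 fell and 9 were not called, with a median of 0.32. The shares over all members were 29.5% rises and 21.6% falls, with a median of 0.08. The ligand gene spi gave 119, 161 and 155 RPM with WT and 233, 237 and 247 RPM with deltaSAM (0.73 ± 0.12), and the ubiquitin ligase gene Cbl, which removes the receptor, gave 342, 338 and 376 RPM with WT and 509, 485 and 532 RPM with deltaSAM (0.53 ± 0.09). The receptor gene Egfr rose from 192 to 270.3 RPM (0.47), with 0.28 and still called without replicate 3 of deltaSAM, which was its highest library. The small GTPase gene Ras85D rose from 27.6 to 46.7 RPM (0.73) and the adaptor gene drk from 1115 to 1441 RPM (0.36), both not called without replicate 2 of deltaSAM (0.54 and 0.28). The exchange factor gene Sos rose from 11.3 to 21.9 RPM (0.93). The rise of sty (0.32) was not called without replicate 1, 2 or 3 of WT or replicate 3 of deltaSAM. Without replicate 2 of deltaSAM 5 members of the list rose and 1 fell. The kinase genes Raf, Dsor1 and rl were not called. The fall was at the scaffold gene ksr (-0.75), lost in 3 of the 6 analyses that left out 1 library. At the gene-table total 4 rose and 3 fell.

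Of 11 insulin and TOR members, with a median of 0.22, 4 rose and 1 fell, against 29.5% and 21.6% of all members. The phosphatidylinositol kinase subunit gene Pi3K21B gave 1112, 1210 and 1245 RPM with WT and 1592, 1621 and 1834 RPM with deltaSAM (0.50 ± 0.09), and gig, a negative regulator of TOR, rose from 14.6 to 32.2 RPM (1.10), while the kinase gene Akt fell from 91.1 to 52.4 RPM (-0.79). Of 12 Hippo members 3 rose and 2 fell, near the shares of all members. The gene-table total gave 1 and 2, and centring gave 5 and 1. The junction protein gene jub gave 61.7, 40.3 and 55.1 RPM with WT and 146, 160.1 and 152 RPM with deltaSAM (1.55 ± 0.14, adjusted p = 6.8e-10), while Mer, an upstream activator gene, fell from 26.1 to 14.2 RPM (-0.82). The rises of kibra (0.31) and sd (0.35) were small, and without replicate 1 or 3 of WT or replicate 1 or 2 of deltaSAM jub was the only rise of the list.

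Of 17 Polycomb and trithorax members 5 rose and 2 fell, against 29.5% and 21.6% of all members, and the gene-table total gave 3 and 2, centring 10 and 1. Of the 14 that reached 10 RPM in all 6 libraries 4 rose and 0 fell. The named changes had ash1 up from 60.4 to 96.3 RPM (0.66), Su(z)12 from 29.2 to 46.9 RPM (0.67) and Psc down from 21.3 to 12.4 RPM (-0.73), a call lost without replicate 3 of WT (-0.52) or replicate 2 of deltaSAM (-0.58). Of 5 dosage compensation members 2 rose and 1 fell, against 0 and 1 at the gene-table total, and the rise of msl-3 was at a gene that passed through deltaSAM alone. The helicase gene mle fell from 49.3 to 33.3 RPM (-0.56), a call lost when centred on the median gene, and without replicate 1 of deltaSAM no member of the list rose.

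Lists of organelle genes held changes in both directions, and most turned with the scaling. Among all members 29.5% rose and 21.6% fell. Of 12 genes of mitochondrial import and dynamics 3 rose and 3 fell, with 1 and 4 at the gene-table total and 5 and 2 after centring. The import channel gene Tom40 rose from 35.4 to 55.3 RPM (0.64), the outer membrane channel gene porin fell from 129.96 to 91.2 RPM (-0.51), and the fusion gene Opa1 fell from 21.2 to 9.62 RPM (-1.21; -0.71 and still called without replicate 2 of deltaSAM). Of 12 COPI and COPII coat members 5 rose and 3 fell, with 2 and 4 at the gene-table total and 5 and 2 after centring. The cargo adaptor gene Sec24CD gave 136, 136 and 134 RPM with WT and 251, 277 and 263 RPM with deltaSAM (0.96 ± 0.10), while its partner gene Sec31 fell from 71.1 to 42.4 RPM (-0.73) and gammaCOP from 24.9 to 9.22 RPM (-1.36). Of 15 vacuolar ATPase members 3 rose and 2 fell, with 2 and 4 at the gene-table total and 8 and 2 after centring, and the fall of Vha100-4 was at a gene that passed through WT alone. VhaSFD rose from 55.1 to 131 RPM (1.23) and Vha68-2 fell from 139 to 95.7 RPM (-0.54). Of 10 autophagy members 4 rose and 2 fell, with 3 and 3 at the gene-table total and 4 and 1 after centring. Atg13 rose from 42.7 to 86.8 RPM (1.02) and Atg2, a member through WT alone, fell from 12.3 to 4.52 RPM (-1.29). Of 11 aminoacyl-tRNA synthetase members 2 rose and 2 fell, with 2 and 4 at the gene-table total and 3 and 1 after centring. AspRS rose from 144 to 293 RPM (1.01). The fall of MetRS (13.3 to 4.88 RPM, -1.37) and the rise of ArgRS were at genes that had passed through 1 group alone, WT and deltaSAM in turn. Without replicate 3 of WT the calls of Tim8, Marf, alphaCOP, beta'COP, Sar1, Atg8a, IleRS and ArgRS in these lists were lost. Those of Tim23 and zetaCOP were lost without replicate 1 of WT.

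**Figure D5:**
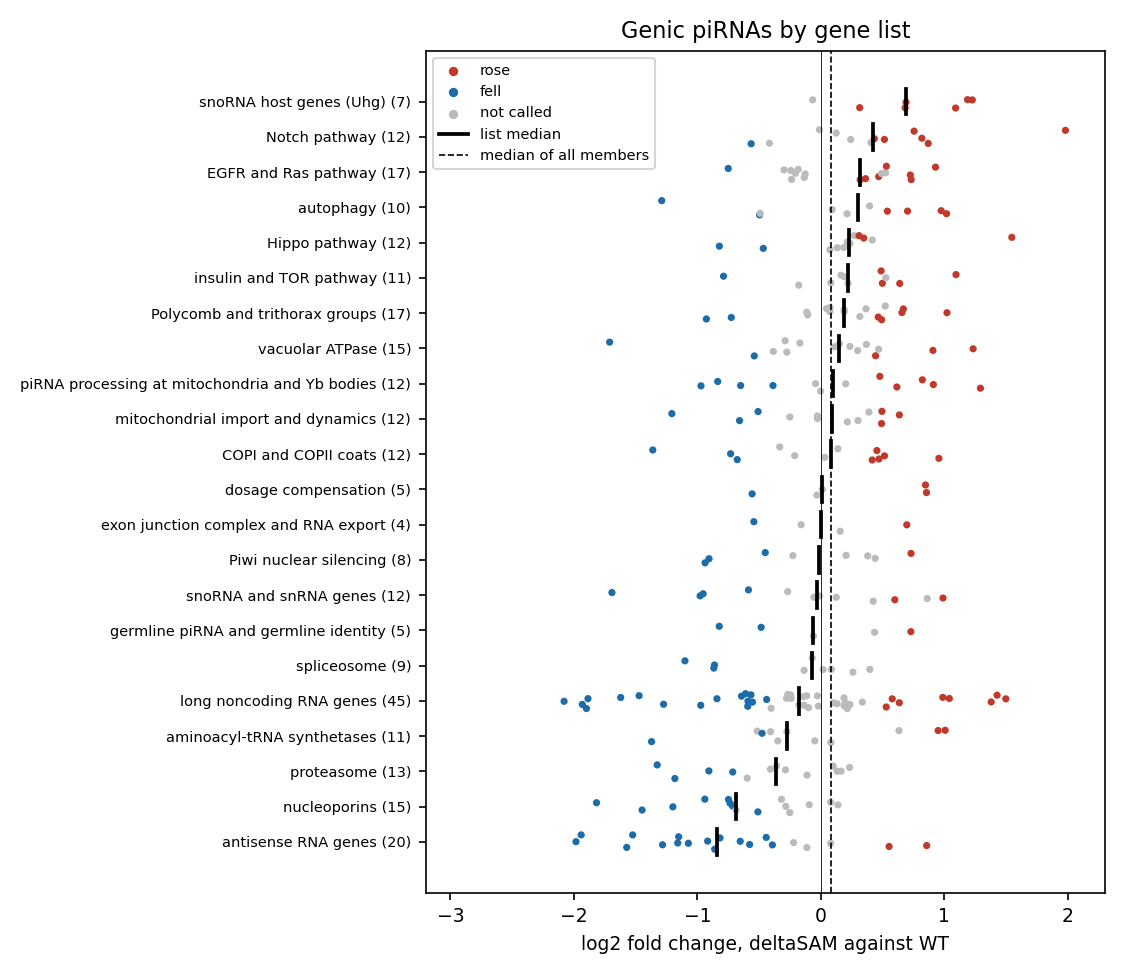
Log2 fold change of deltaSAM against WT (horizontal) for the members of 22 gene lists (vertical, number of members in brackets). Each point is 1 gene, red where it rose, blue where it fell and grey where it was not called; short bars are list medians, from -0.84 for antisense RNA genes to 0.69 for snoRNA host genes, and the dashed line is the median of all members at 0.08.

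The noncoding sources split by kind. Over all members 29.5% rose and 21.6% fell, with a median log2 fold change of 0.08. Of 20 antisense RNA genes 2 rose, 15 fell and 3 were not called, with a median log2 fold change of -0.84. Of the 15 that reached 10 RPM in all 6 libraries 2 rose and 11 fell, with a median of -0.82, and 3 of the falls were at genes that passed through WT alone. The gene asRNA:CR42547 gave 386, 317 and 315 RPM with WT and 111, 122 and 118 RPM with deltaSAM (-1.52 ± 0.11, adjusted p = 7.6e-12). The gene asRNA:CR42871 gave 188, 165 and 192 RPM with WT and 49.96, 48.5 and 41.4 RPM with deltaSAM (-1.94 ± 0.13), and asRNA:CR45807 gave 47.4, 40.8 and 52.3 RPM with WT and 18.2, 15.2 and 12.1 RPM with deltaSAM (-1.57 ± 0.19). In these 3 genes every deltaSAM library lay below every WT library. For asRNA:CR42871 this was a condition of its choice, and the others were named for their low p, so it is no added support. Groups did not overlap at 18 of the 20 antisense RNA members, against 2237 of all 3735 members. The 2 rises were asRNA:CR42254, the most abundant of the kind, with 839, 680.4 and 713 RPM with WT and 1191, 1247 and 1632 RPM with deltaSAM (0.86 ± 0.10), and asRNA:CR44030 (0.55). There were 16 falls at the gene-table total, 12 after centring on the median gene and 13 to 14 when 1 library was left out.

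Each of the 20 antisense RNA genes overlaps the span of another gene, and for 8 of them a gene on that stretch was also a member. Where the antisense RNA fell, there were 10 such pairs, and 1 antisense RNA could enter more than 1 pair. The overlapping gene fell in 1, rose in 1 and was not called in 8, against 21.6% falls and 29.5% rises over all members. Some of these genes lay near 10 RPM with WT, such as fbl (9.76 RPM) and p53 (10.8 RPM). The rise was at AspRS, from 144 to 293 RPM, opposite asRNA:CR43468, which fell from 86.2 to 40.3 RPM (-1.07). The fall was at Cyp4d2, from 58.5 to 27.5 RPM, beside asRNA:CR44690. With asRNA:CR42547 the overlapping gene mahj gave 21.9 and 22.3 RPM, and with asRNA:CR42871 CG6650 gave 91.9 and 110 RPM, neither of them called. As the strand rule of the counting is not given, reads of an antisense RNA and of the gene it overlaps cannot be told apart.

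Long noncoding RNA genes other than the snoRNA hosts and flam included 45 members, of which 8 rose and 16 fell, with a median of -0.18. Among all members 29.5% rose and 21.6% fell, with a median of 0.08. Of the 29 long noncoding RNA members that reached 10 RPM in all 6 libraries 6 rose and 7 fell, with a median of -0.03. The stress-induced nuclear RNA lncRNA:Hsromega gave 67.8, 66.8 and 60.2 RPM with WT and 177, 178 and 157 RPM with deltaSAM (1.38 ± 0.12), and lncRNA:CR40469 gave 9.69, 14.3 and 10.03 RPM with WT and 37.6, 27.2 and 36.4 RPM with deltaSAM (1.50 ± 0.21). The genes lncRNA:CR45517 (1.43), lncRNA:cherub (1.04) and lncRNA:CR45102 (0.99) rose as well. In the other direction lncRNA:CR44564 gave 42.3, 38.6 and 53.7 RPM with WT and 11.8, 12.0 and 9.94 RPM with deltaSAM (-1.90 ± 0.19), and lncRNA:CR45732 fell from 66.3 to 27.1 RPM (-1.27). The falls of lncRNA:CR44861 (14.9 to 3.02 RPM) and lncRNA:CR44779 (20.8 to 4.66 RPM) were at genes that passed through WT alone.

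The snoRNA host genes of the Uhg group, whose spliced transcripts carry snoRNAs in their introns, held rises and no fall. Of 7 members 6 rose and 0 fell, with a median of 0.69, and Uhg7 passed through deltaSAM alone. The shares over all members were 29.5% rises and 21.6% falls, with a median of 0.08. Uhg3 gave 451, 469 and 471 RPM with WT and 1060, 998 and 1118 RPM with deltaSAM (1.19 ± 0.09, adjusted p = 1.5e-11), Uhg4 gave 36.7, 37.0 and 42.3 RPM with WT and 84.0, 98.0 and 93.3 RPM with deltaSAM (1.23 ± 0.14) and Uhg8 gave 194, 215 and 182 RPM with WT and 314, 291 and 351 RPM with deltaSAM (0.69 ± 0.11). In each of them every deltaSAM library lay above every WT library, but they were named for the lowest p of the list, so this is no added support. Groups did not overlap at 6 of the 7 members, against 2237 of all 3735 members. Uhg2 rose from 38.7 to 62.9 RPM (0.68), Uhg7 from 7.19 to 16.5 RPM (1.09) and Uhg5 from 169 to 211 RPM (0.31), the last not called in 3 of the 6 analyses that left out 1 library. Uhg1 overlapped (139 to 132 RPM, adjusted p = 0.706). At least 5 rose and 0 fell under each scaling and with any 1 library left out. Reads of the hosts and of the snoRNAs in their spans cannot be told apart where counting was not stated.

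Of 12 snoRNA and snRNA members 2 rose and 4 fell, against 29.5% and 21.6% of all members. Centred on the median gene 3 rose and 3 fell. The fall of snoRNA:Dek-a was at a gene that passed through WT alone. The guide RNA gene snoRNA:Or-aca4 gave 70.9, 72.3 and 74.5 RPM with WT and 25.3, 22.3 and 18.2 RPM with deltaSAM (-1.69 ± 0.16), and snRNA:7SKa, the RNA that holds the elongation factor P-TEFb inactive, fell from 56.9 ± 1.23 to 37.7 ± 3.02 RPM (-0.59 ± 0.15). Of 3 transfer RNA members tRNA:Ser-CGA-1-3 rose from 3.94 to 16.5 RPM and tRNA:Gln-CTG-2-2 from 4.03 to 15.5 RPM, both members through the deltaSAM libraries alone, while tRNA:Lys-TTT-2-1 was not called. Transfer RNA genes have near-identical copies, so the assignment of these reads to 1 copy is uncertain.

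By position the share that rose varied little. On the large arms 27.6% (2R) to 31.5% (3L) of members rose. The share that fell was 16.0% on 2L (104 of 649), 21.1% on 3L, 22.2% on 3R, 23.9% on X and 24.2% on 2R (179 of 739). On the small chromosome 4, 16 of 52 rose and 5 fell. By length of the gene span, the share that rose was 28.2% to 31.1% over 5 equal groups, from spans of at most 2.23 kb to spans over 13.1 kb.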

How the data were processed

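Piwi-bound small RNAs were sequenced from 6 Daed rescue libraries, and the authors deposited RPM values per gene and, for merged replicates, RPM, read counts and mean piRNA length in nt per transposon. The submitters' processing notes name STAR, HTSeq, BDGP6 and dm6 without their roles, and the strand rule is not given in the sources used here. Symbols, biotypes and Release 6 (dm6) coordinates came from a RefSeq table, which named 17341 of 17469 gene IDs (99.3%) and placed 3701 members.

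Genes of at least 1 RPM in 3 of the 6 libraries were tested with limma (3.58.1, trend) on log2(RPM + 1), which understates changes of low genes, with Benjamini-Hochberg adjustment at 0.05. All RPM values gave whole reads (100%, within 0.01 reads), and edgeR 4.0.16 on those reads called 2428 genes with library totals and 2431 with TMM factors, against 2437 by limma. DESeq2 1.42.0 called 1587. Intervals for transposon ratios are exact conditional 95% intervals that cover counting error only.

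Genes were named by rule: the 12 largest called changes in RPM each way, the 5 largest on the log2 scale from 100 RPM and among noncoding genes, up to 4 per list by p, and tj, flam, piwi, armi, daed and zuc. The 12 and the 5 were taken among called members whose groups did not overlap. For transposons the rule took the 10 with most RPM, the 8 highest and lowest ratios and the 5 largest and smallest gains in length. One gene that the rule names is not reported here. Items named beyond these were chosen after their values were seen. The members and lists were chosen with earlier results of these data known. Models were tested on simulated data. R 4.3.3, Python 3.11.15, pandas 2.3.3 and scipy 1.17.1 were used. Each library was also left out in turn, and scaling, filter and pseudocount were varied.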

Additional observations from a re-analysis of the deposited data

How the results depend on the processing

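Of 120 named genes called, 103 were called under each of 19 alternatives and 17 lost their call under at least 1; none of the results recomputed changed sign while called. Scaled to the gene-table total, 710 members rose. DESeq2 gave 535 falls, by a method that calls fewer genes. With 1 library left out, 1568 to 1969 members were called, of which 903 to 1144 rose and 621 to 825 fell. The gap between the groups in the share of reads at genes stayed between 7.40 and 8.21 percentage points, and that in the flam share of gene reads between -2.18 and -1.79. The next alternatives, and the level bins and list counts over members of at least 10 RPM in all 6 libraries, were chosen after seeing the data. Centred on the median member, 964 rose and 912 fell, and among members of at least 10 RPM in all 6 libraries 979 rose and 557 fell. Replicate numbers were shared by the groups, and the deviations of same-numbered libraries correlated at 0.05, -0.02 and 0.02. With 3 libraries per group such values cannot exclude that same-numbered libraries were made together. A fit with the replicate block called 1980 members (1139 rose and 841 fell). For transposons, a minimum of 100 RPM left 3 elements higher and 20 lower past 1.5-fold, no minimum gave 9 higher, and a 2-fold limit gave 2 higher and 16 lower. Weighted by reads, the gain in length was 2.92 nt, against a median of 2.50 nt over elements. The causes of these differences were not tested. Merged transposon values have no replicate check, and genes near 10 RPM rest on few reads.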
